A study of Mus musculus with 6 samples.

Results

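The genes described here are 36 genes of homologous recombination, the Fanconi anaemia pathway and the DNA damage checkpoint, out of 27179 genes counted in mouse leukaemia cells. They were chosen by name: 18 recombination genes, 7 Fanconi genes and 11 checkpoint and damage sensing genes. Each of the 36 was found in the count table by its symbol, and each passed the filter on low counts. There were 3 libraries from panobinostat treatment and 3 from vehicle treatment, both given for 3 days. Panobinostat is an inhibitor of the histone deacetylases, which take acetyl groups off histone tails.

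Both groups shared the same cells: the line labelled A/E9a;NRASG12D;Ifnar1-/-, with C57BL/6 as the labelled strain. A/E9a is a form of the AML1-ETO fusion oncogene, NRASG12D is an activated RAS, and the -/- label marks loss of Ifnar1, an interferon receptor gene, in the panobinostat and the vehicle group alike. Leukaemia cells were sorted from spleen as GFP positive, with propidium iodide to mark dead cells. All libraries carry the same line label, and whether each stands for its own animal is not stated. The p-values therefore reflect no more than how these libraries vary, technical variation included. In sorted bulk RNA, fewer cells of a type and less RNA per cell cannot be told apart.

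Homologous recombination repairs a broken chromosome by copying the intact sister chromatid, and so works mainly in S and G2 phase. Broken ends are trimmed to single strands by nucleases, BRCA1 and BRCA2 with their partners then prepare the strands for pairing, and helicases and translocases remodel and resolve the joint molecules. The Fanconi pathway detects crosslinks between the strands and hands them to the same machinery. The kinases ATM and ATR sense breaks and stalled forks and, through CHK2 and CHK1, hold the cell cycle. Many of these genes are transcribed mainly in dividing cells, and histone deacetylase inhibitors are known to lower several of them in cultured tumour cells.

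Library totals ran from 31989622 to 35962605 counts, and the 36 genes had between 140 and 14876 counts in a library, well above the 3 counts that a count of 0 allows. Values are in CPM, counts divided by library sizes scaled by TMM factors, and triplets are in the order of libraries 1, 2 and 3 of a group. Library 1 of each group stood apart. Over all genes tested, log2 CPM of vehicle library 1 correlated with vehicle libraries 2 and 3 at a Pearson r of 0.942 and 0.941, across genes that are not independent replicates. With panobinostat libraries 2 and 3 the r was 0.976 and 0.984. It thus resembled 2 panobinostat libraries more than the other vehicle libraries. Whether its label is right was not tested, so the vehicle means, the fold changes and the values without it all rest on that label. Panobinostat library 1 had an r of 0.950 to 0.971 with the other 5 libraries. Results below are therefore given with these libraries and, where that matters, without vehicle library 1 or without both. Granulocyte markers were near 0, with summed levels of 1.06 to 4.64 CPM in panobinostat and 2.65 to 5.54 CPM in vehicle libraries over 10 genes, among them Elane, which had no counts in 5 of the 6 libraries. Erythroid markers were abundant, at 2465 to 21955 CPM in panobinostat and 7188 to 22746 CPM in vehicle libraries over 9 matched genes. Mast cell and basophil markers summed to 2451, 1407 and 1339.6 CPM in panobinostat libraries and 1477, 1262 and 1299.9 CPM in vehicle libraries, highest in panobinostat library 1, where Cpa3, a mast cell protease, had 210.1 CPM against 6.35 to 25.9 CPM in the other 5 libraries. Gata2 and Ms4a2 made up much of the mast cell and basophil sum, at 1112 and 695 CPM in panobinostat library 1. Fcer1a and Kit were not highest there. Erythroid markers were lowest in panobinostat library 1. B cell markers summed to 5.59 to 32.1 CPM in panobinostat and 30.2 to 51.4 CPM in vehicle libraries over 10 genes. T cell markers summed to at most 9.87 CPM in panobinostat and 11.8 CPM in vehicle libraries over 10 genes.

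Promoters of the genes are shown first, because E2F factors are known to drive many repair genes with the cell cycle. Whether the words found have a part in how the genes varied between libraries was not tested. RefSeq sequence of build GRCm38.p6 was at hand for 27 of the 36 genes, in 30 windows of 250 bases before a gene's start. Searched on both strands were the E2F words TTTCGCGC, TTTGGCGC, TTTCCCGC and TTTGCCGC, the cell cycle homology region word TTTGAA, and the CCAAT box. No word of one motif overlaps a word of another in the sequences printed here. An E2F word stood in 5 of the 30 windows (16.7%), against 1.86% of the 32851 windows of all genes. CCAAT stood in 18 of them (60.0%), against 33.8% of all windows, and TTTGAA in 1 (3.33%), against 16.0%. The windows of all genes cover 27025 genes, also ones with counts too low to be tested here. They were not matched to the 36 genes for expression or base composition, so these differences in share are descriptive. A match is a description of the letters and says nothing of a factor's binding. Windows were not at hand for Fancd2, Rad51d, Wee1, Rbbp8, Xrcc2, Rad50, Rad54b, Exo1 and Nbn. Sequences are read along the gene's strand, with the matched letters in capitals, and show the part of a window that lies outside GENCODE exons and upstream of the gene's RefSeq span. For Brca2, Chek2 and Topbp1, whose E2F word lies inside that span, the 30 bases around the word are shown. The first 5 are the genes with an E2F word. Parp1 follows as a gene that varied widely between libraries with none of the words in its window, and Blm and Atm as genes that were not low in vehicle library 1.
Bard1, chr1:71103147-71103222 (-): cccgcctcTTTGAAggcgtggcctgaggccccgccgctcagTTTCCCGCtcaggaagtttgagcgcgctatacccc
Brca2, chr5:150522442-150522471 (+): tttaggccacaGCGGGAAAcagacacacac
Chek2, chr5:110839820-110839849 (+): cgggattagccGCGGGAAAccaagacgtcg
Mdc1, chr17:35841248-35841494 (+): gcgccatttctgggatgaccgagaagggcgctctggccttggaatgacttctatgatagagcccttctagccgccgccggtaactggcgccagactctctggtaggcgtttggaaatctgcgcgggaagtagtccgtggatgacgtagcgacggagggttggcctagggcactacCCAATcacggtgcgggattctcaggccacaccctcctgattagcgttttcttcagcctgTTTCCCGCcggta
Topbp1, chr9:103305185-103305214 (+): gtccgctcggttgGCGCGAAAgtcggttcc
Parp1, chr1:180568641-180568890 (+): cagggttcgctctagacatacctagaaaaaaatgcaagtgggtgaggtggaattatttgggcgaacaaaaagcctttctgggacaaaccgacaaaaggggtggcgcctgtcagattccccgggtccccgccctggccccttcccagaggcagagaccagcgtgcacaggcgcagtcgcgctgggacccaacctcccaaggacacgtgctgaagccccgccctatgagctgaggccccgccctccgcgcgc
Blm, chr7:80535149-80535248 (-): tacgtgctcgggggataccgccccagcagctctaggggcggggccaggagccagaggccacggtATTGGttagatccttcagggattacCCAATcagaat
Atm, chr9:53536829-53536921 (-): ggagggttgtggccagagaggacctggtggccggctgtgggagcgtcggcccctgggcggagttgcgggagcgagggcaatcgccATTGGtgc
Distances are counted to the start that each window precedes, which for Bard1 and Mdc1 lies inside the gene's RefSeq span. In Bard1 the E2F word TTTCCCGC began 209 bases and TTTGAA 242 bases before that start. In Mdc1 the same E2F word began 16 bases before its own start. Brca2 and Chek2 carried it on the other strand, as GCGGGAAA, and Topbp1 carried GCGCGAAA, which reads TTTCGCGC on the other strand.

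None of the 36 genes differed between panobinostat and vehicle beyond the spread between libraries. By edgeR's quasi-likelihood test with Benjamini-Hochberg adjustment over 13207 genes, 0 of 36 were called higher and 0 lower, where 0% of all genes tested were called in either direction. At an unadjusted p under 0.05 the count was also 0 of 36, against 2.28% of all genes tested. DESeq2 called 0 of the 36 as well, where it called 0.0534% of all genes higher and 0.0152% lower, and limma-voom called 0. No gene of the 36 had 3 panobinostat values all on one side of the 3 vehicle values, against 7.43% of all genes tested, 3.79% on the higher and 3.63% on the lower side. Estimates were lower with panobinostat for 25 genes and higher for 11, from a log2 fold change of -0.50 for Bard1 to 0.18 for Atm. The median log2 fold change was -0.062 over the 36 genes and 0.00090 over all genes tested. The 95% interval included 0 for each of the 36 and lay within 1 log2 unit of 0, a 2-fold difference, for 33 of them. The exceptions were Bard1, Fancl and Parp1, the genes with the widest spread among vehicle libraries.

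**Figure D1:**
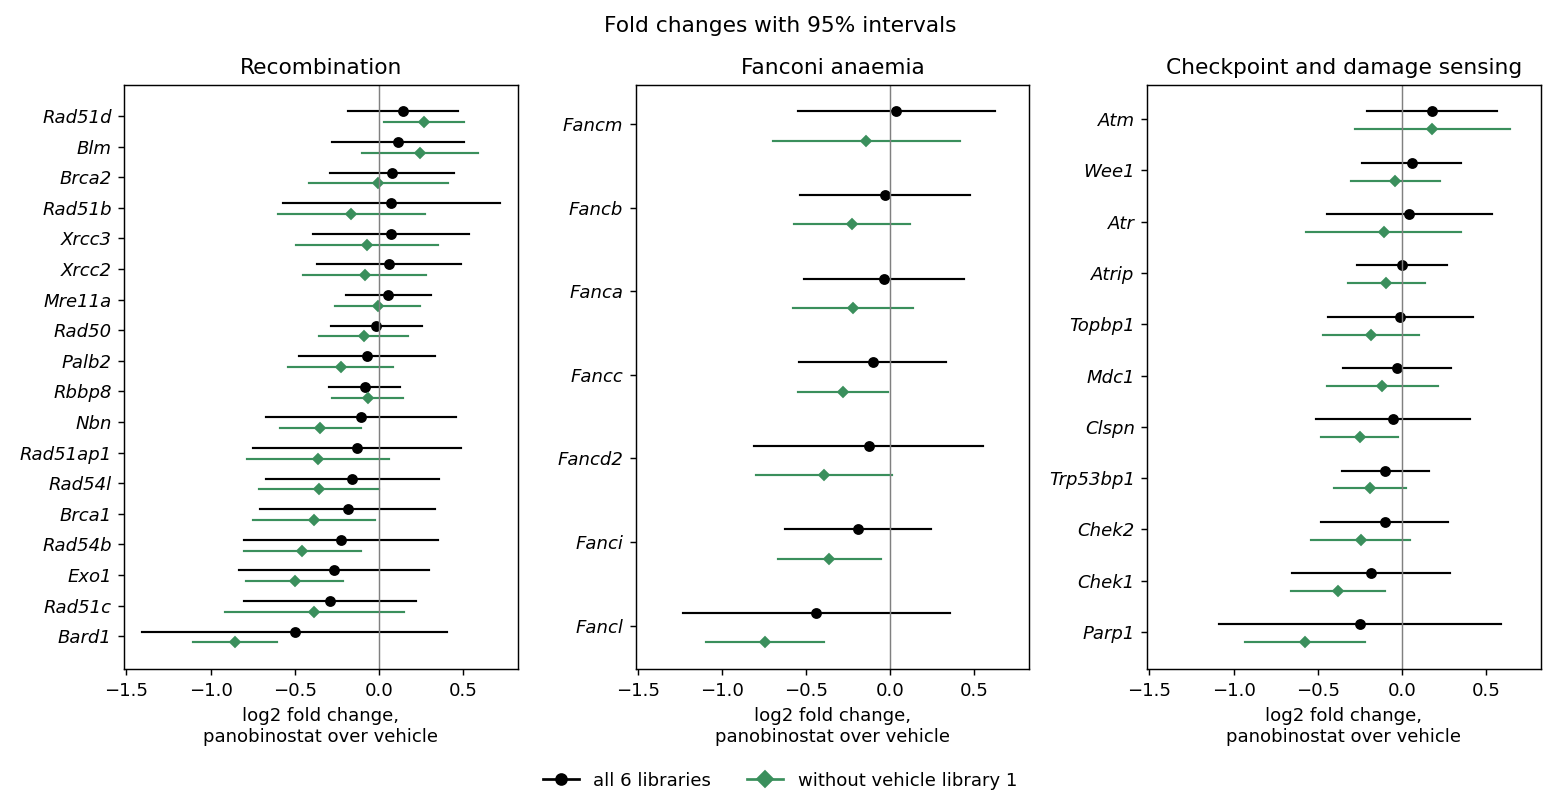
Log2 fold change of panobinostat over vehicle (x axis) for each gene (y axis, by pathway), with 95% intervals from edgeR's quasi-likelihood fit, for all 6 libraries (black circles) and without vehicle library 1 (green diamonds). With all libraries each interval crosses 0, and without vehicle library 1 the interval of Bard1 lies farthest below 0.

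Among recombination genes, the 18 had 7 higher and 11 lower estimates and a median log2 fold change of -0.078. BRCA1 and BARD1 form a ubiquitin ligase that promotes end resection. Bard1 (chromosome 1, 71027535 to 71103141, RefSeq span on GRCm38) stood at 50.8, 53.3 and 45.0 CPM in panobinostat libraries and 32.6, 89.1 and 89.1 CPM in vehicle libraries. Its panobinostat values lay above vehicle library 1 and below vehicle libraries 2 and 3, and its range of 2.74-fold over the 6 libraries was the widest of the 36 genes. Its log2 fold change was -0.50 (SE 0.374), with a 95% interval of -1.41 to 0.41. Brca1 (chromosome 11, 101488761 to 101551955) stood at 78.8, 97.5 and 91.2 CPM in panobinostat libraries and 73.1, 102 and 129 CPM in vehicle libraries. Vehicle library 1 was again lowest, with vehicle library 3 highest, and the log2 fold change was -0.19 (SE 0.214).

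PALB2 bridges BRCA1 to BRCA2, which acts on resected single-stranded DNA. Palb2 stood at 26.3, 24.8 and 28.1 CPM in panobinostat libraries and 22.1, 27.996 and 33.2 CPM in vehicle libraries. Brca2 (chromosome 5, 150522297 to 150570147) stood at 36.6, 45.3 and 40.3 CPM in panobinostat libraries and 34.9, 34.6 and 46.3 CPM in vehicle libraries. Neither followed Bard1 in size: their panobinostat values lay within the vehicle range, and Brca2 was as low in vehicle library 2 as in vehicle library 1. Their log2 fold changes were -0.073 (SE 0.168) for Palb2 and 0.078 (SE 0.154) for Brca2.

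Rad51b, Rad51c, Rad51d, Xrcc2 and Xrcc3 encode related proteins that act together in complexes during strand exchange. Rad51b, Xrcc2 and Xrcc3 were lowest in vehicle library 1, and Rad51c and Rad51d were not. Rad51d (chromosome 11, 82871960 to 82890624) stood at 51.3, 55.7 and 58.5 CPM in panobinostat libraries and 58.9, 45.9 and 44.8 CPM in vehicle libraries. It was highest in vehicle library 1, and its 3 panobinostat values lay above vehicle libraries 2 and 3, which held for no other of the 36 genes and for 21% of all genes tested. Rad51b (chromosome 12, 79297282 to 79848260) stood at 7.34, 6.72 and 6.998 CPM in panobinostat libraries and 4.42, 7.14 and 8.44 CPM in vehicle libraries, lowest in vehicle library 1. Rad51c (chromosome 11, 87376645 to 87404954) stood at 5.89, 6.999 and 6.38 CPM in panobinostat libraries and 6.92, 9.75 and 6.87 CPM in vehicle libraries, with vehicle library 2 alone above the others. Both were the lowest of the set per kilobase of exon, with 140 counts for Rad51b in vehicle library 1 as the lowest count of any gene here. Xrcc2 stood at 19.0, 22.8 and 17.6 CPM in panobinostat libraries and 15.4, 20.02 and 21.5 CPM in vehicle libraries. Xrcc3, whose product pairs with that of Rad51c, stood at 30.3, 26.8 and 21.1 CPM in panobinostat libraries and 19.996, 28.4 and 25.9 CPM in vehicle libraries. In both, the groups overlapped and vehicle library 1 was lowest. Log2 fold changes of these 5 genes ran from -0.29 for Rad51c to 0.15 for Rad51d, each with an adjusted p of 0.998 in edgeR's quasi-likelihood test.

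The product of Rad51ap1 stimulates strand pairing, and RAD54L and RAD54B are translocases that act in the invasion of the homologous strand. Rad51ap1 stood at 40.3, 59.5 and 48.0 CPM in panobinostat libraries and 36.2, 64.8 and 60.7 CPM in vehicle libraries. Rad54l stood at 57.9, 59.9 and 44.8 CPM in panobinostat libraries and 43.8, 67.1 and 70.6 CPM in vehicle libraries. Rad54b stood at 20.2, 24.3 and 21.3 CPM in panobinostat libraries and 17.3, 27.1 and 32.5 CPM in vehicle libraries. For all 3 genes the panobinostat values lay below both vehicle libraries 2 and 3 and above vehicle library 1. GENCODE places 35.8% of Rad54b exon bases in Fsbp on the same strand, and 15.4% of Rad54l exon bases in Lrrc41 on the opposite strand, so how reads were shared there is uncertain.

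The MRE11-RAD50-NBN complex binds broken ends and brings in ATM, RBBP8 (CtIP) starts resection with it, and EXO1 and the helicase BLM extend it. Rad50 stood at 119.8, 120.5 and 109 CPM in panobinostat libraries and 107, 114 and 131 CPM in vehicle libraries. Mre11a stood at 47.7, 55.8 and 51.5 CPM in panobinostat libraries and 46.0, 50.9 and 52.0 CPM in vehicle libraries. Nbn (chromosome 4, 15957587 to 15992589) stood at 86.4, 76.8 and 74.0 CPM in panobinostat libraries and 56.0, 99.8 and 99.8 CPM in vehicle libraries. Rad50 and Mre11a were thus nearly flat, with ranges of 1.22-fold for Rad50 and 1.21-fold for Mre11a, while Nbn spanned 1.78-fold. Rbbp8 was the steadiest of the 36 genes, at 64.7 ± 2.71 CPM in panobinostat and 68.6 ± 2.77 CPM in vehicle libraries (SD, n = 3 each). Its 95% interval of -0.30 to 0.13 on the log2 scale was the narrowest. Exo1 (chromosome 1, 175880768 to 175911396) stood at 42.8, 53.5 and 48.5 CPM in panobinostat libraries and 38.8, 67.3 and 68.1 CPM in vehicle libraries. Its panobinostat values lay between vehicle library 1 and the other vehicle libraries. Blm (chromosome 7, 80454993 to 80535148) went the other way, at 157, 186 and 177 CPM in panobinostat libraries and 191, 129 and 161 CPM in vehicle libraries, highest in vehicle library 1 and lowest in vehicle library 2.

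**Figure D2:**
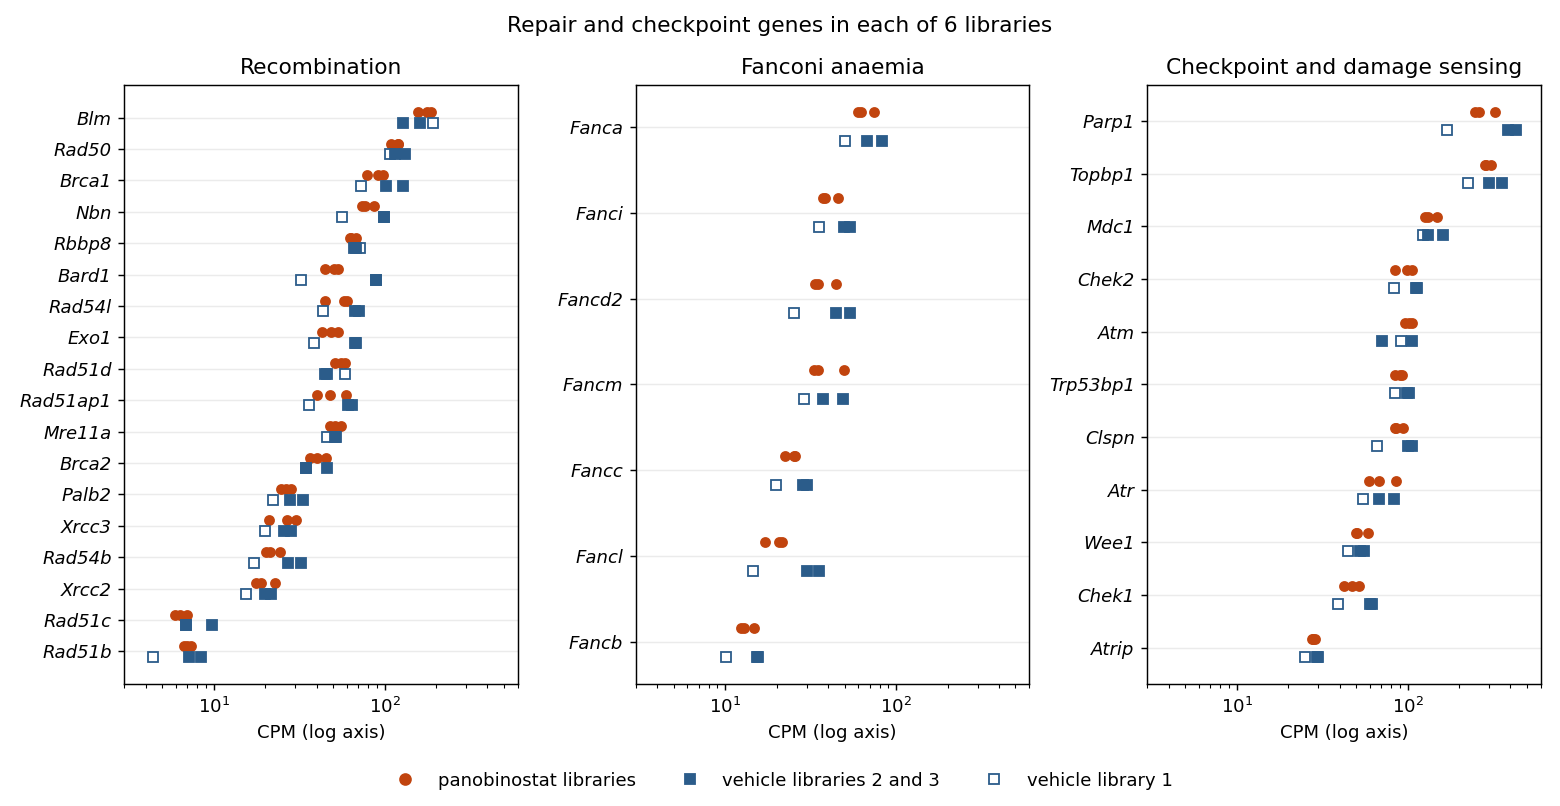
CPM (x axis, log scale) of each gene (y axis) in each of the 6 libraries, with panobinostat libraries as filled circles, vehicle libraries 2 and 3 as filled squares and vehicle library 1 as an open square. For Bard1 the panobinostat libraries lie at 45.0 to 53.3 CPM, between vehicle library 1 at 32.6 and vehicle libraries 2 and 3 at 89.1.

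Of the 7 Fanconi genes, 1 had a higher and 6 a lower estimate, with a median log2 fold change of -0.11, and each was lowest in vehicle library 1. FANCL is the ubiquitin ligase of the core complex, and FANCD2 with FANCI is the pair that it modifies. Fancl (chromosome 11, 26387084 to 26471883) stood at 21.5, 20.6 and 17.1 CPM in panobinostat libraries and 14.5, 35.5 and 30.2 CPM in vehicle libraries. The panobinostat values again lay between vehicle library 1 and the other vehicle libraries, and the log2 fold change was -0.44 (SE 0.327) with a 95% interval of -1.23 to 0.35. GENCODE places 13.7% of its exon bases in Vrk2 on the opposite strand. Fancd2 (chromosome 6, 113531640 to 113597020) stood at 33.7, 44.4 and 35.0 CPM in panobinostat libraries and 25.4, 44.5 and 53.6 CPM in vehicle libraries. Fanci stood at 38.2, 45.6 and 37.2 CPM in panobinostat libraries and 35.2, 49.3 and 53.5 CPM in vehicle libraries. Both again had panobinostat values between vehicle library 1 and the other vehicle libraries, over a range of 2.11-fold for Fancd2 and 1.52-fold for Fanci.

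The other Fanconi genes are members of the core complex and FANCM, a translocase that anchors it to DNA. Fanca stood at 59.6, 74.0 and 62.6 CPM in panobinostat libraries and 50.4, 68.0 and 83.1 CPM in vehicle libraries. Fancb, on the X chromosome, stood at 14.8, 12.9 and 12.4 CPM in panobinostat libraries and 10.05, 15.3 and 15.6 CPM in vehicle libraries. Fancc stood at 25.3, 25.4 and 22.4 CPM in panobinostat libraries and 19.8, 30.3 and 28.5 CPM in vehicle libraries. GENCODE places 10.5% of Fanca exon bases in Zfp276, 16.4% of Fancc exon bases in Gm16133 and 16.0% of Fanci exon bases in Polg, each on the opposite strand. Groups overlapped for Fanca, Fancb and Fancc. Panobinostat values of Fancb and Fancc lay below vehicle libraries 2 and 3 and above vehicle library 1. Fancm (chromosome 12, 65074110 to 65131842) stood at 49.8, 33.0 and 35.1 CPM in panobinostat libraries and 29.1, 37.2 and 48.8 CPM in vehicle libraries, with panobinostat library 1 the highest of the 6, and was the 1 Fanconi gene with a higher estimate, at 0.036 (SE 0.242).

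Checkpoint and damage sensing genes had 3 higher and 8 lower estimates of 11, with a median log2 fold change of -0.028. The kinase genes differed among themselves. Atm (chromosome 9, 53437122 to 53536828) stood at 107, 102 and 96.1 CPM in panobinostat libraries and 91.6, 70.9 and 106 CPM in vehicle libraries, lowest in vehicle library 2. Atr (chromosome 9, 95857597 to 95953217) stood at 86.1, 68.1 and 59.2 CPM in panobinostat libraries and 54.9, 68.4 and 83.4 CPM in vehicle libraries, lowest in vehicle library 1 and highest in panobinostat library 1. Atrip, the subunit that brings ATR to single-stranded DNA, was flat at 28.1 ± 0.449 CPM in panobinostat and 28.1 ± 2.70 CPM in vehicle libraries (SD, n = 3 each). GENCODE places 16.0% of Atrip exon bases in Trex1 on the same strand, so its count is uncertain. Chek1 (chromosome 9, 36708482 to 36726658), the kinase downstream of ATR, stood at 42.4, 52.2 and 47.3 CPM in panobinostat libraries and 39.2, 61.6 and 60.3 CPM in vehicle libraries. Chek2 (chromosome 5, 110839800 to 110874140), the kinase downstream of ATM, stood at 83.9, 106 and 98.7 CPM in panobinostat libraries and 83.7, 113 and 113 CPM in vehicle libraries. Both had panobinostat values below vehicle libraries 2 and 3 and above vehicle library 1. Wee1, which blocks mitotic entry through CDK1, stood at 53.0 ± 4.74 CPM in panobinostat and 50.9 ± 5.45 CPM in vehicle libraries (SD, n = 3 each). Log2 fold changes of the 5 kinase genes ran from -0.18 for Chek1 to 0.18 for Atm.

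TOPBP1 activates ATR, and claspin, the product of Clspn, couples ATR to CHK1. Topbp1 (chromosome 9, 103305167 to 103350428) stood at 286, 307 and 283 CPM in panobinostat libraries and 224, 298 and 358 CPM in vehicle libraries. Clspn (chromosome 4, 126556957 to 126594533) stood at 85.1, 94.2 and 84.6 CPM in panobinostat libraries and 66.1, 101 and 106 CPM in vehicle libraries. Vehicle library 1 was lowest and vehicle library 3 highest for both, and only Clspn had panobinostat values all below vehicle libraries 2 and 3. MDC1 holds repair factors at damaged chromatin, and 53BP1, the product of Trp53bp1, restrains resection and favours end joining. Mdc1 stood at 136 ± 11.6 CPM in panobinostat and 139 ± 19.8 CPM in vehicle libraries (SD, n = 3 each), and Trp53bp1 at 89.3 ± 4.35 CPM in panobinostat and 95.5 ± 9.33 CPM in vehicle libraries (SD, n = 3 each). GENCODE places 15.04% of Trp53bp1 exon bases in Tubgcp4 on the opposite strand. PARP1 marks single- and double-strand breaks with poly(ADP-ribose). Parp1 (chromosome 1, 180568891 to 180600999) was the most abundant gene of the set per kilobase, and in CPM stood at 325, 260.2 and 248 CPM in panobinostat libraries and 169.7, 389 and 431 CPM in vehicle libraries. Vehicle libraries differed from each other by 2.54-fold, more than any panobinostat value differed from them, and the log2 fold change was -0.25 (SE 0.346) with a 95% interval of -1.09 to 0.59.

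Among the 36 genes, vehicle library 1 was the library most often lowest. It was the lowest of the 6 libraries for 29 of the 36 genes (80.6%), against 25.4% of all genes tested, and vehicle library 3 was the highest for 20 (55.6%), against 16.0%. Relative to the mean of vehicle libraries 2 and 3, the median gene of the set stood at 0.684 in vehicle library 1, where the median over all genes tested was 0.986. The 6 genes that were not below both other vehicle libraries there were Brca2, Rad51c, Rad51d, Blm, Rbbp8 and Atm. The coefficient of variation had a median of 9.29% within panobinostat and 21.2% within vehicle libraries over the 36 genes, and was larger within vehicle for 33 of them, against 64.0% of all genes tested. For 31 of the 36 genes (86.1%) the panobinostat mean lay between vehicle library 1 and the mean of vehicle libraries 2 and 3, against 60.5% of all genes tested.

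**Figure D3:**
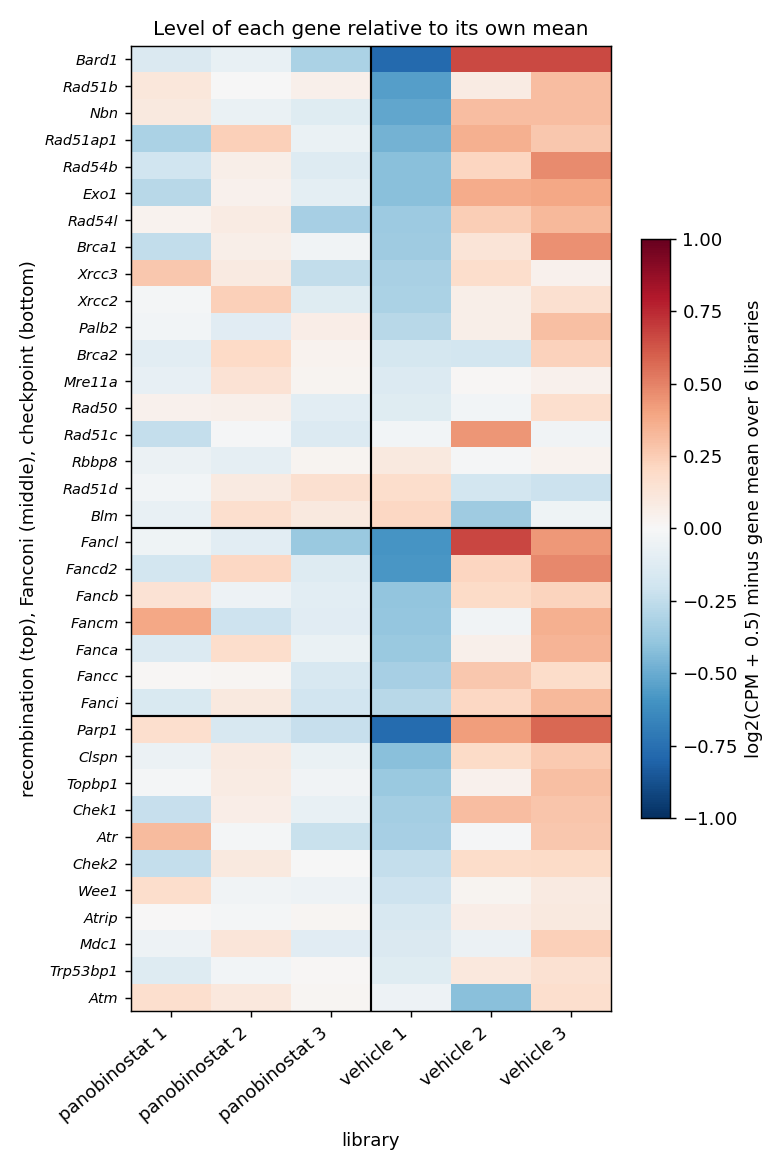
Level of each gene (rows, by pathway and then by level in vehicle library 1) in each library (columns), as log2(CPM + 0.5) minus the gene's mean over the 6 libraries, with blue for lower and red for higher. Vehicle library 1 is the lowest column for 29 of the 36 genes, and the highest for Rad51d, Blm and Rbbp8.

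Cell cycle genes moved with the repair genes. With each gene's log2(CPM + 0.5) centred on its mean over the 6 libraries, the median of the recombination genes was -0.065, 0.059 and -0.085 in panobinostat libraries and -0.32, 0.10 and 0.25 in vehicle libraries. The Fanconi median was -0.041, 0.022 and -0.13 in panobinostat libraries and -0.38, 0.21 and 0.34 in vehicle libraries, and the checkpoint median was -0.018, 0.067 and -0.047 in panobinostat libraries and -0.24, 0.063 and 0.24 in vehicle libraries. A list of 28 S phase genes had medians of -0.24, 0.12 and -0.013 in panobinostat libraries and -0.34, 0.23 and 0.22 in vehicle libraries. A list of 20 G2 and mitosis genes had medians of -0.081, -0.017 and -0.034 in panobinostat libraries and -0.43, 0.26 and 0.28 in vehicle libraries. Each of these 5 lists was lowest in vehicle library 1. Panobinostat library 1 was low in S phase genes but not to that extent in the repair genes. By summed level, S phase genes stood at 4586, 6026 and 5423 CPM in panobinostat libraries and 4320.1, 6197 and 6073 CPM in vehicle libraries. Cdkn1a, the cell cycle inhibitor p21, is named here after its values were seen. It stood at 85.9, 238 and 324 CPM in panobinostat libraries and 428, 60.3 and 56.9 CPM in vehicle libraries. Cdkn1a was thus highest in vehicle library 1, where the 5 lists were lowest. Among panobinostat libraries it did not run opposite to the S phase genes, as both were lowest in library 1. Megakaryocyte markers, 10 genes of which 6 were tested, summed to 228, 388 and 396 CPM in panobinostat libraries and 445, 244 and 242 CPM in vehicle libraries. Most of each sum was Gp5, at 211, 307 and 285 CPM in panobinostat libraries and 269, 236 and 234 CPM in vehicle libraries. That the sum was highest in vehicle library 1 rested mainly on Itga2b. Itga2b stood at 13.0, 54.5 and 85.9 CPM in panobinostat libraries and 149, 3.99 and 2.90 CPM in vehicle libraries. Pf4 was no higher in vehicle library 1, at 19.9 CPM, than in panobinostat libraries 2 and 3, at 21.7 and 20.7 CPM. Gp6, another gene of the megakaryocyte list, had at most 0.0632 CPM in any library. The part of cell cycle state or of other cells in the repair gene levels was not tested.

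**Figure D4:**
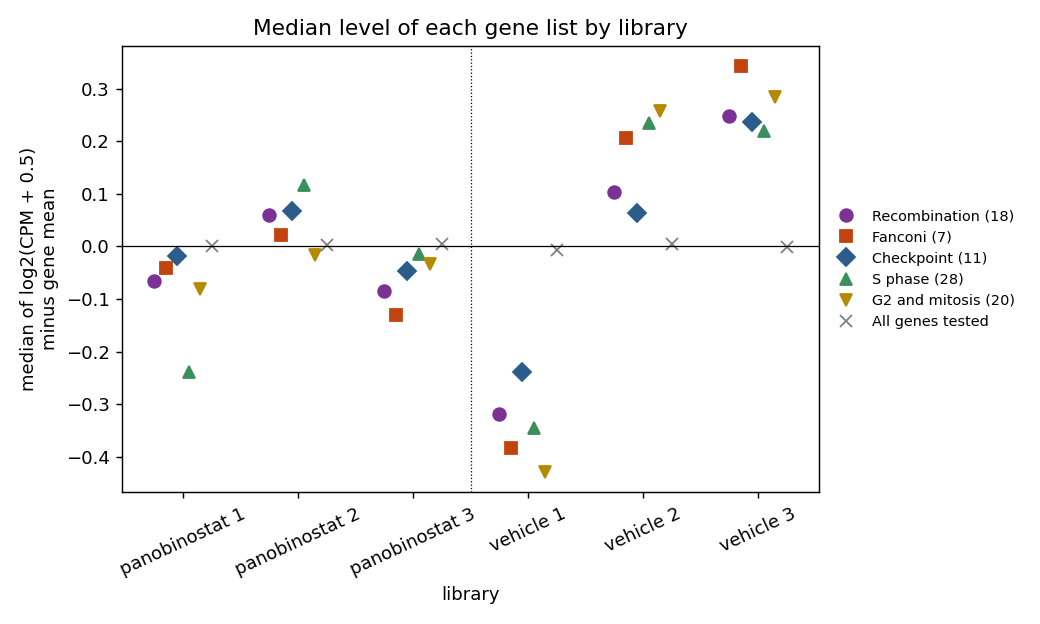
Median of log2(CPM + 0.5) minus the gene mean (y axis) in each of the 6 libraries (x axis) for recombination, Fanconi, checkpoint, S phase and G2 and mitosis genes and for all genes tested, with the number of genes in brackets. The 5 lists are all lowest in vehicle library 1, at -0.24 to -0.43, while all genes tested stay near 0 in each library.

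Without vehicle library 1, 33 of the 36 estimates were lower with panobinostat, against 51.2% of all genes tested, and the median log2 fold change of the set was -0.22 against -0.0073 over all genes. The 3 genes with higher estimates were Rad51d, Blm and Atm. EdgeR then called 1 of the 36 lower, Bard1, and 0 higher, where 0.419% of genes tested were called lower and 2% higher. Bard1 had a log2 fold change of -0.85 (SE 0.1005) and an adjusted p of 0.0281 in edgeR's quasi-likelihood test in that setting, from 3 panobinostat and 2 vehicle libraries. Fancl had -0.75 (SE 0.143) with an adjusted p of 0.0656, Exo1 -0.50 (SE 0.117) with 0.0959, and Parp1 -0.58 (SE 0.144) with 0.106 by the same edgeR test, and none of them passed. At an unadjusted p under 0.05, 12 of the 36 were lower, against 8.76% of genes tested. The 3 panobinostat values lay below both vehicle libraries 2 and 3 for 18 of the 36 genes, against 19.9% of all genes tested. These were 7 recombination, 5 Fanconi and 6 checkpoint genes. In the G2 and mitosis list the same held for each gene except Cdk1, Cenpf and Mki67, so it was not particular to repair genes. Leaving out vehicle library 3 instead put the medians of the recombination, Fanconi and checkpoint genes on the other side, at 0.049, 0.075 and 0.074, so the direction of the set rested on which vehicle libraries were used.

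Without both libraries numbered 1, which leaves out the panobinostat library high in mast cell markers as well as vehicle library 1, a setting added after the data were seen, edgeR called 5 of the 36 genes lower and 0 higher, where 4.65% of genes tested were called lower and 7.36% higher. Bard1 had a log2 fold change of -0.87 and an edgeR adjusted p of 0.00575. Parp1 had -0.70 with an edgeR adjusted p of 0.00812, and Fancl -0.81 with 0.0173. Nbn had -0.41 with an edgeR adjusted p of 0.0225, and Exo1 -0.42 with 0.0359. The called genes were 1 end-binding subunit, 1 exonuclease, the BRCA1 partner, the Fanconi ligase and PARP1. No checkpoint kinase was called, which at a share of 4.65% over all genes says nothing particular of the kinases. Chek1 was nearest among the kinases, at -0.30 with an edgeR adjusted p of 0.0902.

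Levels of different genes were compared per kilobase of GENCODE exon, averaged over the 6 libraries. Parp1 stood highest at 57.4 CPM per kb, from 32.1 to 81.5 over the libraries. Chek2 and Nbn followed at 33.2 CPM per kb and 32.4 CPM per kb, with ranges of 27.9 to 37.7 and 22.1 to 39.4 that overlapped, and then Topbp1 at 26.1 CPM per kb and Rad50 at 21.7 CPM per kb. Lowest were Rad51c at 1.63 CPM per kb and Rad51b at 1.82 CPM per kb, whose ranges of 1.34 to 2.22 and 1.18 to 2.25 also overlapped. Brca2 stood at 2.91 CPM per kb and Brca1 at 11.2 CPM per kb, with ranges of 2.54 to 3.39 and 8.57 to 15.1 that did not overlap. Atr stood at 2.96 CPM per kb and Atm at 9.25 CPM per kb, also without overlap. The annotated exons of a gene need not all be used in these cells, so levels per kilobase are approximate.

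Ratios of some partner pairs within a library, on the scale of CPM per kilobase, showed which of these kept step. Further pairs were computed and are not printed. The Bard1 to Brca1 ratio was 0.973, 0.824 and 0.743 in panobinostat libraries and 0.672, 1.31 and 1.04 in vehicle libraries. It was lowest in vehicle library 1 and highest in vehicle library 2, so the levels of the pair did not move by equal factors. The Nbn to Rad50 ratio was 1.53, 1.35 and 1.45 in panobinostat libraries and 1.11, 1.85 and 1.62 in vehicle libraries, and the Mre11a to Rad50 ratio 0.361, 0.420 and 0.430 in panobinostat libraries and 0.389, 0.404 and 0.360 in vehicle libraries. Mre11a and Rad50 kept step more closely than Nbn and Rad50 did. The Chek1 to Clspn ratio was 0.773, 0.859 and 0.867 in panobinostat libraries and 0.919, 0.944 and 0.881 in vehicle libraries. All panobinostat values of this ratio lay below the vehicle values. That difference was not tested, and how often ratios of other genes part in this way was not determined. The Chek1 to Chek2 ratio was 0.327, 0.320 and 0.310 in panobinostat libraries and 0.303, 0.354 and 0.345 in vehicle libraries. The Xrcc3 to Rad51d ratio was 0.799, 0.649 and 0.486 in panobinostat libraries and 0.458, 0.835 and 0.781 in vehicle libraries. It spanned nearly the same values in both groups.

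Other genes of repair and checkpoint control were also without calls, but were less low in vehicle library 1. Of 57 further genes of these pathways, 0 were called higher and 0 lower by edgeR's quasi-likelihood test, with 17 higher and 40 lower estimates and a median log2 fold change of -0.071. Their centred median in vehicle library 1 was -0.14, against -0.33 for the 36 genes, a difference that was not tested. The 4 with the smallest p were Rad17, Ppm1d, Mus81 and Rmi1. Rad17, which loads the checkpoint clamp, stood at 53.0, 61.9 and 58.6 CPM in panobinostat libraries and 55.8, 74.8 and 87.2 CPM in vehicle libraries. Ppm1d, the phosphatase WIP1 that ends checkpoint signalling, stood at 28.8, 29.2 and 30.9 CPM in panobinostat libraries and 26.7, 43.2 and 45.7 CPM in vehicle libraries. In both, the panobinostat values lay below vehicle libraries 2 and 3. Mus81, a nuclease for joint molecules, stood at 19.5, 25.7 and 23.5 CPM in panobinostat libraries and 25.6, 27.1 and 26.6 CPM in vehicle libraries. Rmi1, a partner of BLM, stood at 65.0, 59.4 and 59.7 CPM in panobinostat libraries and 61.8, 69.2 and 74.3 CPM in vehicle libraries. Groups overlapped for all 4, and each had an adjusted p of 0.998 by the edgeR test.

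End joining, the competing route that ligates ends without a template, had 11 genes with 7 higher and 4 lower estimates, a median log2 fold change of 0.045 and 0 calls by edgeR. Lig3, a DNA ligase, stood at 72.7, 64.3 and 63.6 CPM in panobinostat libraries and 58.0, 52.2 and 60.6 CPM in vehicle libraries. Its panobinostat values lay above the vehicle values, the 1 gene of the 11 without overlap, against 7.43% of all genes tested, 3.79% on the higher side, at a log2 fold change of 0.23 (SE 0.106) and an edgeR adjusted p of 0.998. Xrcc4, the partner of ligase IV, stood at 4.36, 4.92 and 4.30 CPM in panobinostat libraries and 4.42, 2.81 and 3.48 CPM in vehicle libraries. Xrcc5, the Ku80 subunit, stood at 50.5, 53.7 and 46.2 CPM in panobinostat libraries and 39.8, 46.9 and 52.9 CPM in vehicle libraries. Dclre1c, the Artemis nuclease, stood at 27.0, 30.7 and 32.4 CPM in panobinostat libraries and 33.0, 24.7 and 27.9 CPM in vehicle libraries. The last of these was highest in vehicle library 1, and the list's centred median there was -0.086, against -0.32 for the recombination genes, a difference that was not tested.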

How the data were processed

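RNA sequencing counts were analysed for 6 libraries. The table that the authors deposited holds whole-number read counts per Entrez gene, with no normalization visible in the values. Per the submitters' processing notes, cutadapt 2.1, HISAT2 2.1.0, featureCounts and Subread 2.0.0 were used with build mm10. Neither their options nor the annotation and strandedness of the counting are stated in those notes, so reads of overlapping genes cannot be assigned with certainty. Columns were assigned to a group by the treated or ctrl in their name, and their numbers are not tied to the labels' replicates. Of 27179 identifiers, 25275 matched a RefSeq symbol (GRCm38.p6). Gene positions are RefSeq spans, and exon lengths and overlaps are from GENCODE M21, the same assembly.

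Genes were kept by filterByExpr (minimum count 10), scaled by TMM and tested in edgeR 4.0.16 under R 4.3.3 by the robust quasi-likelihood F-test, two-sided, with Benjamini-Hochberg adjustment over 13207 genes and a threshold of 0.05. The standard error is the log2 fold change divided by the square root of F, and intervals use the fit's degrees of freedom. CPM uses TMM-scaled library sizes. Alternatives were RLE factors, library size alone, a cut at a mean of 1 CPM, no filter, DESeq2 1.42.0, limma-voom (limma 3.58.1), the replicate block, and each library left out in turn. The genes, lists and promoters shown were chosen with earlier results of these data known. All 36 genes are named, with the 4 smallest p among each list of other repair genes.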

Additional observations from a re-analysis of the deposited data

How the results depend on the processing

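With all 6 libraries, 0 of the 36 genes were called by edgeR under RLE factors, library size alone, a cut at a mean of 1 CPM, no filter or the replicate block, nor by limma-voom or DESeq2. Over all genes edgeR called 0 in these settings and limma-voom 0, while DESeq2 called 9. Leaving out each library in turn gave 0 to 324 calls over all genes and 0 to 1 among the 36, with the upper values without vehicle library 1 and 0 when each of the remaining 5 was dropped. With both libraries numbered 1 left out, chosen after seeing the data, edgeR called 1590 genes and 5 of the 36. The median log2 fold change ran from -0.20 to 0.049 for recombination, from -0.28 to 0.075 for Fanconi and from -0.18 to 0.074 for checkpoint genes as libraries were left out in turn. Same-numbered libraries did not deviate together, with correlations of their deviations from group means of -0.14, 0.072 and -0.20 for numbers 1, 2 and 3, and the replicate block left 0 calls, with medians of -0.060, -0.072 and -0.022.

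The sign of a fold change turned for 22 of the 36 genes in at least 1 alternative. None of them was called with all 6 libraries, where edgeR called no gene at all. In the edgeR fit of all 6 libraries with TMM scaling, the largest log2 fold change among them was 0.19 in size. Sizes were larger in some alternatives, and Nbn, at -0.41, was called lower without both libraries numbered 1. Atrip turned to 0.0047 with no filter, 0.00075 by limma-voom and 0.0032 with the replicate block, and Topbp1 to 0.018 by limma-voom and 0.017 with the block. Without both libraries numbered 1 the log2 fold change was -0.19 for Rad51b, -0.051 for Xrcc2, -0.19 for Xrcc3, -0.35 for Fancm, -0.27 for Atr, -0.11 for Wee1. As libraries were left out in turn, log2 fold changes ran from -0.39 to 0.025 for Brca1, -0.0089 to 0.23 for Brca2, -0.23 to 0.078 for Palb2, -0.16 to 0.28 for Rad51b, -0.36 to 0.025 for Rad51ap1, -0.083 to 0.16 for Xrcc2, -0.071 to 0.20 for Xrcc3, -0.020 to 0.25 for Blm, -0.0067 to 0.11 for Mre11a, -0.090 to 0.073 for Rad50, -0.35 to 0.023 for Nbn, -0.22 to 0.15 for Fanca, -0.23 to 0.075 for Fancb, -0.28 to 0.014 for Fancc, -0.39 to 0.11 for Fancd2, -0.17 to 0.25 for Fancm, -0.11 to 0.21 for Atr, -0.091 to 0.049 for Atrip, -0.038 to 0.12 for Wee1, -0.18 to 0.16 for Topbp1, -0.25 to 0.074 for Clspn, -0.12 to 0.095 for Mdc1. The cause of these turns was not tested. With 3 libraries a group, the intervals of Bard1, Fancl and Parp1 reach past a 2-fold difference, and the lowest count of any of the 36 genes in a library was 140.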
